A study of Arabidopsis thaliana with 9 samples.

Results

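Flowering time and flower form in Arabidopsis thaliana are largely governed by MADS-box genes, which encode transcription factors that bind DNA as dimers and larger complexes. The 10 genes described here were named by locus, with no threshold on a measured value: the flowering repressor FLC, the flowering integrators SOC1 and FUL, and the floral meristem and organ identity genes AP1, SEP1, SEP2, SEP3, AP3, PI and AG. They are 10 of the 22254 genes in the deposited table, and they are described as a sign of the developmental stage of the seedlings. All 10 had a row in the table. 8 had counts high enough to be tested, and SEP1 and SEP2 did not.

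RNA was sequenced from whole seedlings of 3 genotypes in the Columbia-0 background, with 3 libraries each. Both mutant genotypes, clpp2-2 and clpp2-1, are labelled knock-out lines of CLPP2, which encodes the proteolytic subunit of the Clp protease in the mitochondrial matrix, and the third genotype is the wild type (wt). Each mutant genotype is 1 line. All seedlings were grown for 2 weeks in liquid culture in diluted Murashige and Skoog medium, with days of 16 h light at 150 µmol m-2 s-1 and 22 °C and nights of 8 h at 18 °C. The labels do not say whether the libraries of a genotype came from separate cultures, so p-values measure the spread between these libraries, which may be technical.

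In the vegetative phase FLC represses flowering by binding the genes of flowering activators, SOC1 and the florigen gene FT among them, at short sequences called CArG boxes. Cold, the autonomous pathway and Polycomb proteins silence FLC, and the Columbia accession carries an inactive allele of its activator FRI. When the plant is induced to flower, FT, SOC1 and FUL turn on AP1 and LFY at the shoot apex. The organ identity genes follow in the flower: AP1 for sepals and petals, AP3 and PI for petals and stamens, AG for stamens and carpels, with the SEP proteins as their common partners. In long days Columbia plants usually make this switch within the first weeks of growth.

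Library totals lay between 36043744 and 36477053 counts, with counts for 21459 to 21546 genes in each library. Levels are given as CPM, counts scaled to a common library total after normalisation by TMM, and a floor of 3 counts corresponds to 0.0807 to 0.0848 CPM. The floor covers counting error only. SD is the spread over the 3 libraries of a genotype. The SE of a log2 fold change comes from the fit to all 9 libraries and includes the spread between libraries. CLPP2 itself averaged 4.6 ± 0.0708 CPM in clpp2-2 and 5.56 ± 0.616 CPM in clpp2-1, against 44.6 ± 1.83 CPM in wt (SD, n = 3 each), so the library labels match the targeted gene. The leaf markers RBCS1A, LHCB1.3 and LHCA1 and 6 root markers were present in every library. Of 9 markers of anther, carpel and ovule tissue, 3 had a row in the table (SPL/NZZ, AMS and A6), and their summed level was low in all genotypes, at 0.522 to 0.679 CPM in clpp2-2, 0.545 to 0.896 CPM in clpp2-1 and 0.557 to 0.717 CPM in wt. Seed storage transcripts differed widely between libraries. Of 11 such markers, 10 summed to 0.686 to 1.35 CPM in clpp2-2, 0.977 to 13.2 CPM in clpp2-1 and 0.511 to 110 CPM in wt. The highest was wt 1 (110 CPM), followed by wt 2 (23.8 CPM) and clpp2-1 1 (13.2 CPM).

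In clpp2-2 seedlings FLC RNA was 3.46-fold higher than in wt, while SOC1 RNA was 2.26-fold and SEP3 RNA 2.73-fold lower. FLC was also called higher, and SOC1 and SEP3 lower, in clpp2-2 against clpp2-1. No member passed the test in clpp2-1 against wt. AP1, AP3, PI, AG, FUL, SEP1 and SEP2 were scarce in all 9 libraries. With edgeR's quasi-likelihood test over the 20294 genes tested, genes with an adjusted p (Benjamini-Hochberg) under 0.05 were called. In clpp2-2 against wt this called 4 of the 8 tested members (FLC higher, and SOC1, SEP3 and AP3 lower). Of all genes tested 10.1% were called, 5.5% higher and 4.57% lower. AP3 passed the filter on low counts only through wt, so its call is a description, and it held in 2 of 16 alternatives. The median log2 fold change of the 8 tested members was -0.89, beside -0.012 over all genes tested. It lies between AP1 (-0.81, SE 1.15) and PI (-0.97, SE 1.29), neither of them called, so it does not measure a shared fall. In whole seedlings, fewer cells of a type and less RNA per cell cannot be told apart.

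**Figure D1:**
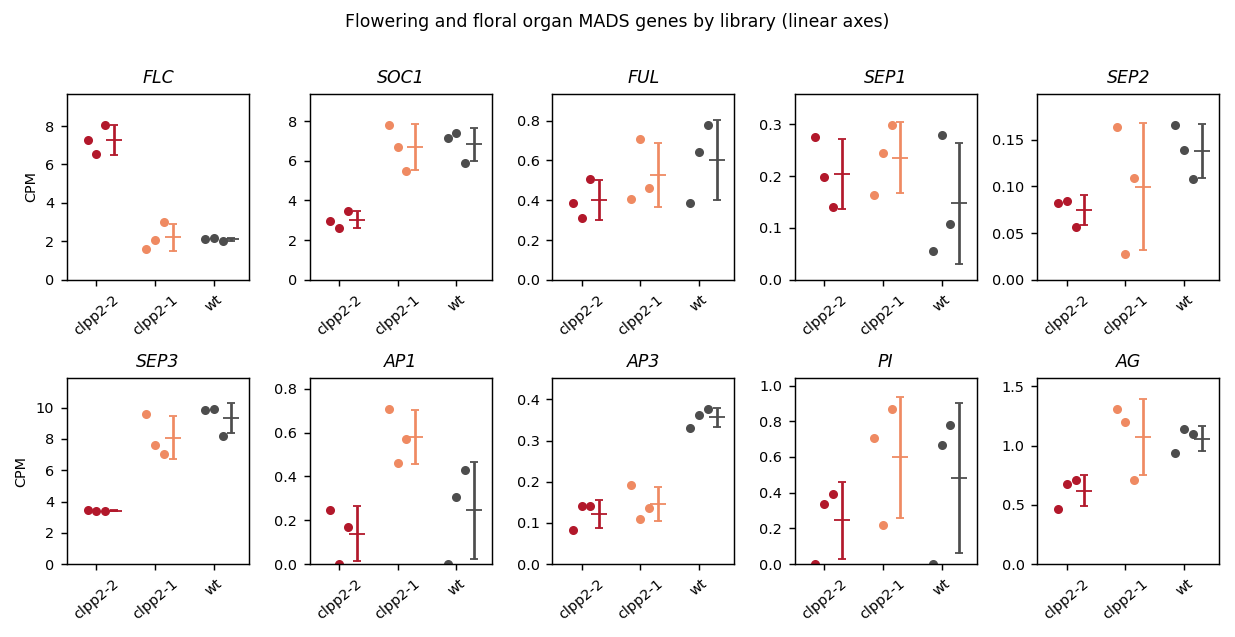
Levels of the 10 genes in CPM (linear axes, each with its own scale) in each of the 3 libraries of clpp2-2, clpp2-1 and wt, with the mean and SD beside the points. The clpp2-2 libraries lie between 6.53 and 8.07 CPM for FLC and between 3.39 and 3.46 CPM for SEP3, apart from the other 6 libraries for both genes.

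FLC (AT5G10140, chromosome 5, 3173382 to 3179448, minus strand, TAIR10.1) is the central repressor of the vernalization and autonomous pathways. It had 7.25, 6.53 and 8.07 CPM in clpp2-2, against 1.58, 2.07 and 2.99 CPM in clpp2-1 and 2.1, 2.17 and 2.04 CPM in wt. Every clpp2-2 library was above every library of the other genotypes, while the clpp2-1 and wt libraries overlapped. The means were 7.28 ± 0.771 CPM in clpp2-2, 2.21 ± 0.714 CPM in clpp2-1 and 2.1 ± 0.065 CPM in wt (SD, n = 3 each). FLC rose 3.46-fold in clpp2-2 over wt (log2 fold change 1.79, SE 0.218, edgeR adjusted p = 0.00324). Against clpp2-1 the log2 fold change was 1.72 (SE 0.218, edgeR adjusted p = 0.00615). For clpp2-1 over wt it was 0.072 (SE 0.218, edgeR adjusted p = 0.952), and no change was called. The 3 clpp2-1 libraries spread more widely than those of wt, and without clpp2-1 library 3 that value was -0.20. Both FLC calls held under all 16 alternatives, the one without wt 1 and clpp2-1 1 among them, with adjusted p up to 0.0186 against wt and up to 0.0325 against clpp2-1.

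The whole FLC gene, 6067 bases, lies opposite the annotated long non-coding RNA gene AT5G01675, which was not analysed here. Whether counting used strand is not stated, so reads of FLC and of antisense RNA cannot be told apart. The 250 bases before the annotated start of FLC (chr5:3179449-3179698, minus strand, RefSeq TAIR10.1) are shown because FLC is the member that rose. They are all in lower case, since they hold no exact CArG box, and neither do the 1000 bases before the start or the gene body. Exact means CC, then only A or T bases, then GG, 10 bases in all. Variants with a mismatch were not searched.

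FLC: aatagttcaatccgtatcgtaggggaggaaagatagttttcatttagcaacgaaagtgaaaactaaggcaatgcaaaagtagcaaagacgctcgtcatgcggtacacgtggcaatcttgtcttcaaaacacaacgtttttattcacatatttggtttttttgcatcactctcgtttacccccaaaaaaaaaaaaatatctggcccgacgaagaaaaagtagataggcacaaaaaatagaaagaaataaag

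SOC1 (AT2G45660, chromosome 2, 18807505 to 18811125, minus strand) is a floral integrator that FLC is known to repress. It had 2.97, 2.63 and 3.47 CPM in clpp2-2, against 7.82, 6.71 and 5.51 CPM in clpp2-1 and 7.17, 7.41 and 5.89 CPM in wt. All clpp2-2 libraries lay below all others, and clpp2-1 overlapped wt. Mean levels were 3.02 ± 0.424 CPM in clpp2-2, 6.68 ± 1.15 CPM in clpp2-1 and 6.83 ± 0.818 CPM in wt (SD, n = 3 each). SOC1 fell 2.26-fold in clpp2-2 relative to wt (log2 fold change -1.17, SE 0.168, edgeR adjusted p = 0.00654) and 2.21-fold relative to clpp2-1 (log2 fold change -1.14, SE 0.168, edgeR adjusted p = 0.0116). The clpp2-1 value against wt was -0.032 on the log2 scale (SE 0.163, edgeR adjusted p = 0.975). The call against wt held under all 16 alternatives. The call against clpp2-1 was lost without clpp2-2 library 2 (adjusted p = 0.057) and without wt 1 and clpp2-1 1 together (adjusted p = 0.056).

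SOC1 was the only one of the 10 genes with an exact CArG box in the 1000 bases before its annotated start, and variants with a mismatch were not searched. The box (a class of 10-base sites that reads alike on both strands) lay 711 to 702 bases before the start. Of 22056 promoters of table genes, 7.27% held an exact CArG box in 1000 bases and 2.66% in 250 bases, so a match of this kind is not rare. The 130 bases around it (chr2:18811767-18811896, minus strand, RefSeq TAIR10.1) overlap no annotated gene, and the capitals mark the box.

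SOC1: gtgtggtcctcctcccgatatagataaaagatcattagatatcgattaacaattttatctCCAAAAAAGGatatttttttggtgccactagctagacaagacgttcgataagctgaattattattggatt

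Within a library, the CPM of FLC divided by that of SOC1 was 2.44, 2.48 and 2.33 in clpp2-2, against 0.202, 0.309 and 0.542 in clpp2-1 and 0.292, 0.293 and 0.347 in wt. The clpp2-2 libraries were tightly grouped and far above the rest, and clpp2-1 libraries lay on both sides of those of wt. This ratio is not divided by transcript length, so it compares libraries and not the levels of both genes.

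FUL (AT5G60910, chromosome 5, 24502434 to 24506269, minus strand) acts beside SOC1 in floral induction and later in fruit development. It was scarce, with 0.384, 0.311 and 0.508 CPM in clpp2-2, 0.408, 0.709 and 0.462 CPM in clpp2-1 and 0.386, 0.641 and 0.78 CPM in wt. The genotypes overlapped. Its log2 fold change in clpp2-2 over wt was -0.58 (SE 0.384, edgeR adjusted p = 0.347), which did not pass the test.

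SEP3 (AT1G24260, chromosome 1, 8593536 to 8596123, minus strand) encodes a common partner of the floral organ identity proteins. It had 3.46, 3.39 and 3.39 CPM in clpp2-2, against 9.61, 7.61 and 7.03 CPM in clpp2-1 and 9.85, 9.92 and 8.21 CPM in wt. The clpp2-2 libraries were nearly equal and below all others, and clpp2-1 overlapped wt. The means were 3.41 ± 0.04 CPM in clpp2-2, 8.08 ± 1.36 CPM in clpp2-1 and 9.32 ± 0.97 CPM in wt (SD, n = 3 each). SEP3 fell 2.73-fold in clpp2-2 relative to wt (log2 fold change -1.45, SE 0.136, edgeR adjusted p = 0.00102). Relative to clpp2-1 it fell 2.37-fold (log2 fold change -1.24, SE 0.136, edgeR adjusted p = 0.00293). Both calls held under all 16 alternatives. The clpp2-1 value against wt was -0.21 on the log2 scale (SE 0.131, edgeR adjusted p = 0.783).

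SEP3 was the only member called when the mean of both lines was set against wt (log2 fold change -0.83, SE 0.112, edgeR adjusted p = 0.014), a contrast in which 1.06% of all genes tested were called, 0.714% higher and 0.35% lower. All 6 mutant libraries lay on one side of wt for 1 member, AP3, and for 4.61% of all genes tested. AP3 passed the filter on low counts only through wt, so its place in that count is a description. For SEP3 the clpp2-1 libraries overlapped wt. The call was lost without wt 1 (adjusted p = 0.0765) and without clpp2-2 library 2 (adjusted p = 0.051). FLC (0.93, edgeR adjusted p = 0.072) and SOC1 (-0.60, edgeR adjusted p = 0.0923) did not pass the test in that contrast. The 250 bases before the annotated start of SEP3 (chr1:8596124-8596373, minus strand, RefSeq TAIR10.1) are shown because SEP3 is, beside SOC1, the other member that fell at these levels. They hold no exact CArG box. The SEP3 gene body holds 1, in an intron or at an exon edge, as do those of AP1 and AG, and SEP2 has 1 in an exon. Of all genes, 14.1% had such a box in the gene body.

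SEP3: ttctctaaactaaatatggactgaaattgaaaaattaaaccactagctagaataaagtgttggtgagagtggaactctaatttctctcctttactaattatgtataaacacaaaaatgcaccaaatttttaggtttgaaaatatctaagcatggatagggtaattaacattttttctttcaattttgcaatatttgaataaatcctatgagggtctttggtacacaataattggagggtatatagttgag

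SEP1 (AT5G15800, chromosome 5, 5151334 to 5154253, minus strand) and SEP2 (AT3G02310, chromosome 3, 464279 to 467151, minus strand) are close paralogs that act redundantly with SEP3 in flowers. SEP1 had 10, 7 and 5 counts in clpp2-2, 6, 9 and 11 counts in clpp2-1 and 2, 10 and 4 counts in wt. SEP2 had 3, 3 and 2 counts in clpp2-2, 6, 1 and 4 counts in clpp2-1 and 6, 5 and 4 counts in wt. Both stayed below the filter on low counts and were not tested. The SEP2 counts of clpp2-2 lay below those of wt, and the SEP1 counts overlapped. SEP1 also overlaps the coding gene AT5G15790 by 100 bases and the non-coding gene AT5G02455 by 449 bases, both on the opposite strand. The longest run shared by the SEP1 and SEP2 coding sequences was 32 bases, and reads that lie within it cannot be assigned to either gene by sequence.

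SEP1 and SEP2: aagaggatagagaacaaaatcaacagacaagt

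The meristem identity gene AP1 (AT1G69120, chromosome 1, 25982294 to 25986349, minus strand) had 9, 0 and 6 counts in clpp2-2, 26, 17 and 21 counts in clpp2-1 and 0, 11 and 16 counts in wt. All clpp2-1 libraries were above those of the other genotypes, but the SD of clpp2-2 and of wt was nearly as large as its mean. The log2 fold change was -0.81 in clpp2-2 over wt (SE 1.15, edgeR adjusted p = 0.684), 1.23 in clpp2-1 over wt (SE 1.08, edgeR adjusted p = 0.814) and -2.03 in clpp2-2 over clpp2-1 (SE 1.13, edgeR adjusted p = 0.344). AP1 and its paralog CAL share a run of 56 coding bases, and reads that lie within it cannot be assigned to either gene by sequence. Of all stretches of 31 bases, 1.49% of those of AP1 and 2.15% of those of CAL were shared. The effect on their estimated counts was not tested. CAL had 0 to 3 counts in each library.

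AP1 and CAL: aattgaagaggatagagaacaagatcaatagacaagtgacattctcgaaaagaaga

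The petal and stamen genes AP3 and PI encode proteins that work as a pair. AP3 (AT3G54340, chromosome 3, 20119140 to 20121314, minus strand) had 3, 5 and 5 counts in clpp2-2, 7, 4 and 5 counts in clpp2-1 and 12, 13 and 14 counts in wt. Both mutant genotypes were below wt in every library. AP3 passed the filter on low counts only through wt, so a gene tested at this level had to differ, and its call in clpp2-2 against wt (log2 fold change -1.53, SE 0.396, edgeR adjusted p = 0.046) is a description. That call held in 2 of 16 alternatives and was lost on leaving out any 1 of the 9 libraries, with adjusted p up to 0.142. For clpp2-1 over wt the log2 fold change was -1.28 (SE 0.389, edgeR adjusted p = 0.758).

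PI (AT5G20240, chromosome 5, 6828904 to 6831515, plus strand) had 0, 12 and 14 counts in clpp2-2, 26, 8 and 32 counts in clpp2-1 and 0, 24 and 29 counts in wt. The genotypes overlapped, and the log2 fold change in clpp2-2 over wt was -0.97 (SE 1.29, edgeR adjusted p = 0.659). PI and AP1 were both at 0 counts in wt 1, the library with the highest sum of seed storage transcripts, where 0 counts allow a level of up to 0.0828 CPM. PI was also at 0 counts in clpp2-2 1 and AP1 in clpp2-2 2, where seed storage transcripts summed to 0.686 and 1.22 CPM. The part of the makeup of wt 1 in the values of PI and AP1 was not tested. Without wt 1, the log2 fold change of PI in clpp2-1 over wt was -0.27, against 0.31 with it.

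AG (AT4G18960, chromosome 4, 10382856 to 10388539, plus strand), which specifies stamens and carpels and is silenced by Polycomb proteins in leaves, had 0.467, 0.679 and 0.706 CPM in clpp2-2, 1.31, 1.2 and 0.706 CPM in clpp2-1 and 0.938, 1.14 and 1.1 CPM in wt. Every clpp2-2 library was below every wt library. The log2 fold change was -0.78 (SE 0.306, edgeR adjusted p = 0.133) and did not pass the test. Among the 8 tested members, the libraries of clpp2-2 and wt did not overlap for 5, and among all genes tested for 33.8%. The 5 include AP3, which passed the filter on low counts only through wt. AG was at 0.013 on the log2 scale for clpp2-1 over wt (SE 0.3, edgeR adjusted p = 0.994).

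**Figure D2:**
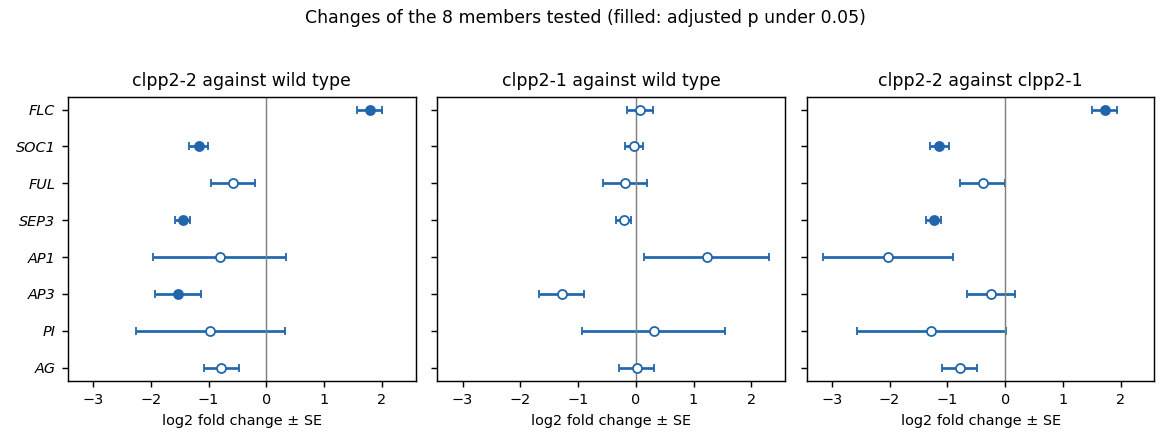
Log2 fold changes with SE (horizontal axis) of the 8 tested members in clpp2-2 against wt, clpp2-1 against wt and clpp2-2 against clpp2-1, with filled points at an adjusted p under 0.05. FLC is at 1.79 and SEP3 at -1.45 in clpp2-2 against wt, while the SE of AP1 and PI exceeds 1 in each panel.

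In clpp2-1 against wt, 0 of the 8 tested members were called by edgeR, DESeq2 or limma-voom, where 0.177% of all genes tested were called by edgeR, 0.153% higher and 0.0246% lower. The libraries of clpp2-1 and wt did not overlap for 2 members, AP1 and AP3, and for 9.62% of all genes tested. Of these 2, AP3 passed the filter on low counts only through wt. At an unadjusted p under 0.05 edgeR's test across all genes gave 1 of the tested members, AP3. The median log2 fold change of the members was -0.0093, beside -0.001 over all genes. A p that misses the threshold does not show that the levels were equal: the SE was 0.131 for SEP3, 0.163 for SOC1 and 0.218 for FLC on the log2 scale. The difference between the lines was tested directly, and 3 of the 8 members were called in clpp2-2 against clpp2-1 (FLC, SEP3 and SOC1), where 3.97% of all genes tested were called, 2.34% higher and 1.63% lower. The libraries of the lines did not overlap for 5 of the 8 members and for 31.4% of all genes tested. Both contrasts of clpp2-2 use the same clpp2-2 libraries, so they are not independent of each other.

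Divided by exon length, the 10 genes fell into an abundant and a scarce set in each genotype. In clpp2-2 the order began with FLC at 6.17 ± 0.653 CPM per kb, followed by SEP3 at 2.69 ± 0.0315 and SOC1 at 1.95 ± 0.273 CPM per kb (SD, n = 3). In clpp2-1 it began with SEP3 at 6.36 ± 1.07, SOC1 at 4.3 ± 0.742 and FLC at 1.88 ± 0.605 CPM per kb. The wt order was the same, with SEP3 at 7.34 ± 0.764, SOC1 at 4.4 ± 0.527 and FLC at 1.78 ± 0.055 CPM per kb. The ranges of these 3 genes did not overlap within a genotype. The other 7 genes averaged 0.049 to 0.308 CPM per kb in clpp2-2, 0.0655 to 0.516 CPM per kb in clpp2-1 and 0.0903 to 0.511 CPM per kb in wt. Neighbours in their order overlapped in range, apart from AP1 over SEP1 in clpp2-1 and AP3 over AP1 in wt. SEP4, the fourth SEP gene, lay at 4.92 ± 0.142 CPM per kb in clpp2-2, 4.87 ± 0.267 in clpp2-1 and 5.25 ± 1.12 in wt. It did not pass the test in clpp2-2 against wt (log2 fold change -0.094, SE 0.147, edgeR adjusted p = 0.713).

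**Figure D3:**
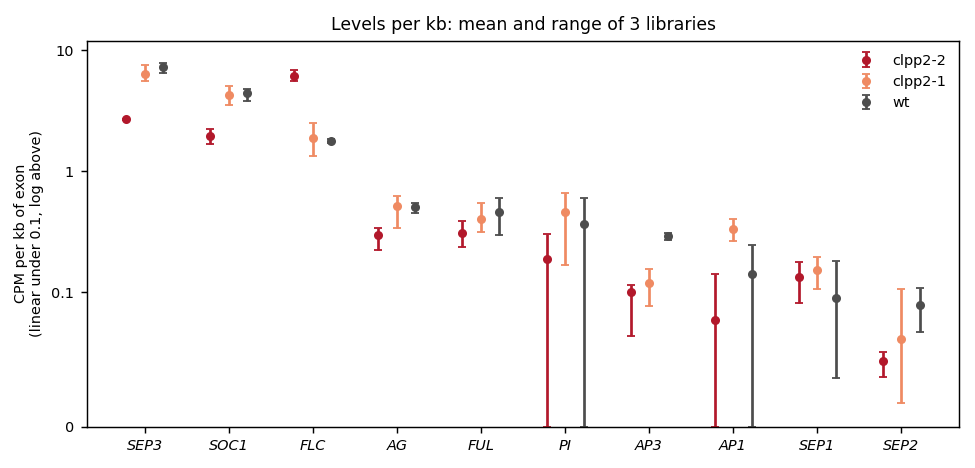
Mean level per kb of exon of each of the 10 genes (vertical axis, linear under 0.1 and logarithmic above), with the lowest and highest of the 3 libraries of clpp2-2, clpp2-1 and wt. FLC is at 6.17 CPM per kb in clpp2-2 and at 1.88 and 1.78 CPM per kb in clpp2-1 and wt.

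Other MADS repressors were described as a list of 8 genes: MAF1 to MAF5 of the FLC clade, and SVP, AGL15 and AGL18. In clpp2-2 against wt 1 of the 8 was called, MAF4, higher, where 5.5% of all genes tested were called higher, and their median log2 fold change was 0.20, whether MAF4 was taken as fitted or at its bound. MAF4 had 11, 20 and 62 counts in clpp2-2 and 0 counts in all clpp2-1 and wt libraries. Against a floor of 3 counts in each library, its clpp2-2 mean was at least 10.6-fold above wt and at least 10.7-fold above clpp2-1. This bound holds for the mean and not for each library, as the clpp2-2 libraries spread widely (0.302, 0.566 and 1.75 CPM). MAF4 passed the filter on low counts only through clpp2-2, so a gene tested at this level had to differ, and its call against wt is a description. That call (edgeR adjusted p = 0.041) held in 7 of 16 alternatives. It was lost without clpp2-2 1, 2 or 3, clpp2-1 3, wt 1 or wt 3 (adjusted p up to 0.11). Against clpp2-1 the main fit did not call MAF4 (edgeR adjusted p = 0.0639). There 4 of 16 alternatives called it, DESeq2 and limma-voom among them, and these calls too are a description. MAF4 has 6 annotated transcripts and shares coding runs with its neighbours in the cluster on chromosome 5, the longest with MAF5, at 43 bases, so how reads were split among them may bear on these counts.

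MAF4 and MAF5: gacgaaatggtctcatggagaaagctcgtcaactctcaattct

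MAF5 had 1.26, 1.56 and 1.69 CPM in clpp2-2, against 0.572, 0.545 and 0.869 CPM in clpp2-1 and 0.966, 1.11 and 0.942 CPM in wt. The clpp2-2 libraries were the highest and the clpp2-1 libraries the lowest. MAF5 was called higher in clpp2-2 against clpp2-1 (log2 fold change 1.18, SE 0.262, edgeR adjusted p = 0.0457), a call that held in 5 of 16 alternatives and was lost on leaving out any library other than wt 2 (adjusted p up to 0.159). It was not called in clpp2-2 against wt (0.58, edgeR adjusted p = 0.176). MAF1, MAF2 and MAF3, flowering repressors of the same clade, were at 0.26, 0.13 and 0.089 on the log2 scale in clpp2-2 over wt and did not pass the test (edgeR adjusted p = 0.101, 0.111 and 0.616). SVP, the partner of FLC in repressing SOC1, averaged 33.7 ± 4.4 CPM in clpp2-2, 35.9 ± 2.04 CPM in clpp2-1 and 35.2 ± 6.08 CPM in wt, with no call.

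**Figure D4:**
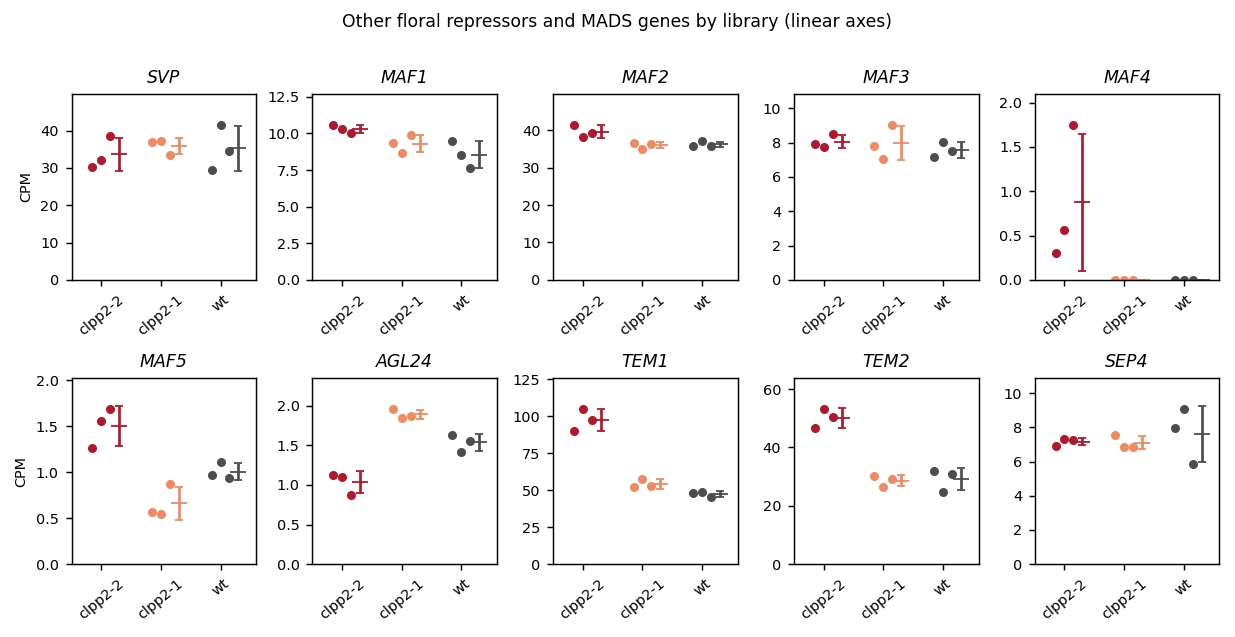
Levels in CPM (linear axes, each with its own scale) of SVP, MAF1 to MAF5, AGL24, TEM1, TEM2 and SEP4 in each library of clpp2-2, clpp2-1 and wt, with the mean and SD beside the points. MAF4 is at 0.302 to 1.75 CPM in clpp2-2 and at 0 in the other 6 libraries, and TEM1 is at 90.3 to 105 CPM in clpp2-2.

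Of 7 AP2-like and TEM repressors, 2 were called in clpp2-2 against wt, both higher: TEM1 and TEM2, which encode repressors of FT. Of all genes tested, 5.5% were called higher. The median log2 fold change of the list was 1.04, beside -0.012 over all genes tested. That median is the value of TEM1 itself. Above it lay TOE3 (1.05), SNZ (3.03) and TOE1 (4.48), none called by edgeR, and below it TEM2 (0.79), TOE2 (0.15) and SMZ (-0.22). TOE1 had 0, 0 and 269 counts in clpp2-2 and 12, 0 and 0 counts in wt. TEM1 had 90.3, 105 and 97.6 CPM in clpp2-2, against 51.9, 57.8 and 53 CPM in clpp2-1 and 48.3, 49.1 and 45.4 CPM in wt. It rose in clpp2-2 over wt (log2 fold change 1.04, SE 0.0675, edgeR adjusted p = 0.00016) and over clpp2-1 (0.85, SE 0.0672, edgeR adjusted p = 0.000836). TEM2 averaged 50.1 ± 3.31 CPM in clpp2-2, 28.6 ± 1.88 CPM in clpp2-1 and 29.1 ± 3.85 CPM in wt, and rose by 0.79 on the log2 scale over wt (SE 0.101, edgeR adjusted p = 0.0042) and by 0.81 over clpp2-1 (SE 0.101, edgeR adjusted p = 0.0059). These 4 calls held under all 16 alternatives. In clpp2-1 against wt TEM1 was at 0.19 and TEM2 at -0.023 on the log2 scale, with no call (edgeR adjusted p = 0.758 and 0.971). The TEM1 libraries of clpp2-1 were all above those of wt, and groups did not overlap for 9.62% of all genes tested. For the mean of both lines against wt TEM1 was called (0.61, SE 0.0597, edgeR adjusted p = 0.00286), where 0.714% of all genes tested were called higher. TEM2 was not (0.38, edgeR adjusted p = 0.0934).

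FT, the florigen gene that FLC and the TEM proteins repress, had 0, 2 and 1 counts in clpp2-2, 4, 2 and 1 counts in clpp2-1 and 1, 1 and 3 counts in wt, so no difference was detectable at this depth. CO, its activator in long days, averaged 1.31 ± 0.459 CPM in clpp2-2, 1.67 ± 0.247 CPM in clpp2-1 and 1.47 ± 0.371 CPM in wt, and FD, its partner at the apex, averaged 3.9 ± 0.466 CPM in clpp2-2, 3.79 ± 0.49 CPM in clpp2-1 and 4.14 ± 0.817 CPM in wt. Neither was called. Of the 9 tested genes of the florigen and photoperiod list, 2 were called in clpp2-2 against wt, both lower: the clock-linked gene GI (log2 fold change -0.31, SE 0.0486, edgeR adjusted p = 0.00921) and SPA1, a repressor of light signalling (-0.37, SE 0.0538, edgeR adjusted p = 0.00709). Of all genes tested, 4.57% were called lower. The GI call was lost without clpp2-2 library 2 (adjusted p = 0.0538) and without wt 1 and clpp2-1 1 together (0.0514), and the SPA1 call held under all 16 alternatives. TSF and LFY had no row in the table, so their levels were not analysed here.

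Among 5 tested genes of a list of other MADS activators (AGL24, AGL42, AGL19, AGL17 and AGL12), 0 were called in clpp2-2 against wt. Their median log2 fold change was -0.57, which is the value of AGL24 itself. At an unadjusted p under 0.05 edgeR gave 2 of them, AGL24 and AGL17, and DESeq2 and limma-voom called 0. AGL24, an activator that acts with SOC1, had 1.13, 1.1 and 0.875 CPM in clpp2-2, against 1.96, 1.85 and 1.87 CPM in clpp2-1 and 1.63, 1.42 and 1.56 CPM in wt. All clpp2-2 libraries were the lowest. The call of AGL24 against clpp2-1 (log2 fold change -0.87, SE 0.187, edgeR adjusted p = 0.0412) held in 6 of 16 alternatives and was lost on leaving out any library other than wt 2 (adjusted p up to 0.14), and against wt it was not called (-0.57, edgeR adjusted p = 0.0857).

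Of 18 tested genes of the autonomous and vernalization pathways, which act on FLC, 2 were called in clpp2-2 against wt, both lower, and the median log2 fold change was -0.055. With 10.1% of all genes tested called in that contrast, 4.57% lower, this count is near the background. VEL1, a relative of VIN3 in the Polycomb silencing of the FLC family, averaged 61.7 ± 1.81 CPM in clpp2-2, 89.4 ± 0.656 CPM in clpp2-1 and 84.5 ± 5.83 CPM in wt. It fell relative to wt (log2 fold change -0.45, SE 0.0533, edgeR adjusted p = 0.00278) and relative to clpp2-1 (-0.53, SE 0.0533, edgeR adjusted p = 0.00218), and both calls held under all 16 alternatives. LD, an autonomous pathway repressor of FLC, was at -0.22 against wt (SE 0.0485, edgeR adjusted p = 0.0294), a call that held in 8 of 16 alternatives and was lost without clpp2-2 1, 2 or 3, clpp2-1 3, wt 1 or wt 3 (adjusted p up to 0.1). Of 7 Polycomb genes 1 was called, a count also near that background: EMF1, lower in clpp2-2 against wt (-0.44, SE 0.116, edgeR adjusted p = 0.048), a call that held in 4 of 16 alternatives and was lost on leaving out any library other than wt 2 (adjusted p up to 0.14). Of the 8 tested genes of the SPL age pathway, edgeR called 0 in clpp2-2 against wt, with 3 at an unadjusted p under 0.05, while DESeq2 called 1 and limma-voom 0. SPL2 was called lower against clpp2-1 (-0.34, edgeR adjusted p = 0.0473), a call that held in 4 of 16 alternatives and was lost on leaving out any library other than wt 1 and wt 2 (adjusted p up to 0.153).

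Of the other floral meristem and organ identity genes 6 were tested and 0 were called in any contrast by edgeR, DESeq2 or limma-voom, with 2 at an unadjusted p under 0.05 in clpp2-2 against wt by edgeR (SHP1 and PNY) and a median log2 fold change of -0.21 in clpp2-2 against wt. The sepal and petal gene AP2 averaged 33.8 ± 0.464 CPM in clpp2-2, 35.7 ± 1.5 CPM in clpp2-1 and 36 ± 1.05 CPM in wt. SHP1, an AG relative of the carpel, averaged 0.72 ± 0.178 CPM in clpp2-2, 1.34 ± 0.373 CPM in clpp2-1 and 1.37 ± 0.565 CPM in wt (log2 fold change over wt -0.93, SE 0.38, edgeR adjusted p = 0.145). SHP2, STK and AGL6 had at most 13, 7 and 3 counts in a library and were not tested. TFL1, which keeps the shoot apex indeterminate, averaged 0.251 ± 0.0799 CPM in clpp2-2, 0.481 ± 0.0412 CPM in clpp2-1 and 0.346 ± 0.159 CPM in wt, with no call.

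**Figure D5:**
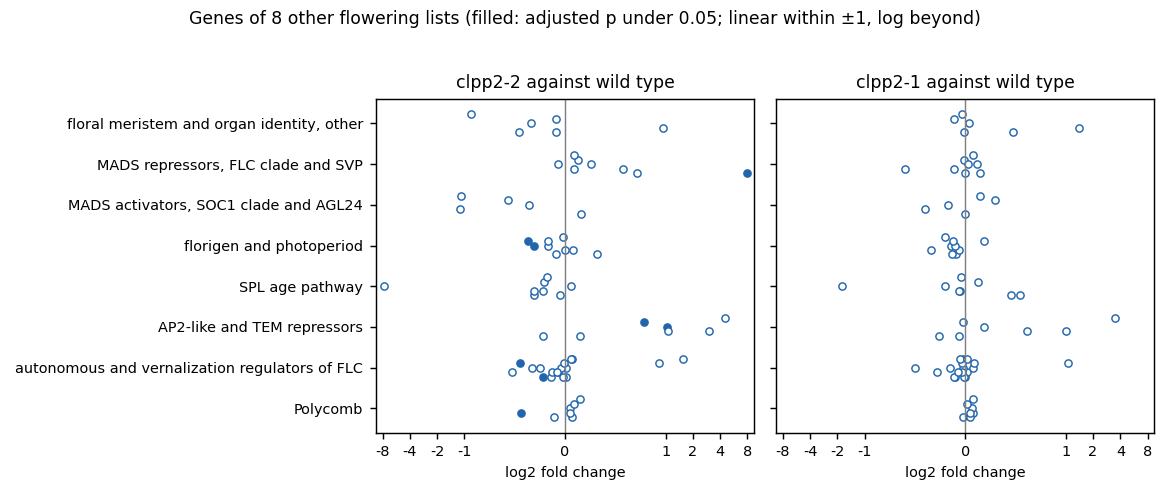
Log2 fold changes of the 68 tested genes of 8 other flowering lists (horizontal axis, linear within 1 of 0 and logarithmic beyond) in clpp2-2 and clpp2-1 against wt, each point a gene, filled at an adjusted p under 0.05. In clpp2-2 the filled points are MAF4, TEM1 and TEM2 on the higher side and GI, SPA1, VEL1, LD and EMF1 on the lower side, and the place of MAF4 is a fitted value that depends on its zeros. The clpp2-1 panel holds no filled point.

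Tissue markers were summed within each library. Leaf markers summed to 18676 to 24719 CPM in clpp2-2, 15709 to 16847 CPM in clpp2-1 and 13358 to 20457 CPM in wt. Both lines overlapped wt, and clpp2-2 lay above clpp2-1. Root markers summed to 80.6 to 92.1 CPM in clpp2-2, 85.1 to 97.7 CPM in clpp2-1 and 86.3 to 116 CPM in wt, and all these ranges overlapped. In each contrast edgeR called 0 leaf and 0 root markers. DESeq2 called 2 leaf markers, RBCS1A and LHCB1.3, in clpp2-2 against wt and against clpp2-1. STM and KNAT1, 2 of 4 markers of the shoot apical meristem, summed to 13.2 to 17.4 CPM in clpp2-2, 15 to 15.7 CPM in clpp2-1 and 14.8 to 18.3 CPM in wt, and these ranges overlapped. The part of tissue makeup in the values of FLC, SOC1 and SEP3 was not tested.

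As a description, the genes whose profiles over the 9 libraries lay nearest to those of the abundant members were found among 18070 genes of at least 1 CPM, from log2 CPM centred and scaled to unit SD for each gene. Nearest to SEP3 were XYL4, LTP3 and LTP4, at root mean square distances of 0.142, 0.167 and 0.187, where the median gene lay at 1.39. Nearest to SOC1 were XYL4 (0.152), DML1 (0.165) and AT5G48780 (0.171). Nearest to FLC were GATA4 (0.194), AT2G47780 (0.207) and AT4G33760 (0.211). SEP3 and SOC1 lay at 0.216 from each other. The points share the same 9 libraries and depths, and the distance ignores the size of the change: XYL4 averaged 92.6 ± 5.15 CPM in clpp2-2, 141 ± 11.1 CPM in clpp2-1 and 147 ± 9.12 CPM in wt.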

How the data were processed

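RNA of 9 seedling libraries was analysed, 3 per genotype. The deposited table holds estimated counts per gene (expected counts), as whole numbers, for 22254 genes, the smallest row sum being 10. The totals lie close together, so scaling by the authors before deposit is possible and not stated. The tools and build are TAIR10, DESeq2, DESeq, Salmon 0.14.0 and FastQC, with no roles given, per the submitters' processing notes. The use of strand in counting is not stated.

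Tests used edgeR 4.0.16 (R 4.3.3). filterByExpr with a count minimum of 10 left 20294 genes and removed 1960. Libraries were scaled by TMM (factors 0.974 to 1.02), and each contrast came from a single quasi-likelihood fit across the 9 libraries, adjusted by Benjamini-Hochberg over all genes tested. CPM use the TMM library sizes, and CPM per kb divide them by the merged exon length in TAIR10.1. The alternatives comprised no filter, size factors of DESeq2, its Wald test (version 1.42.0), limma-voom (limma 3.58.1), the replicate block, only the groups compared, wt 1 and clpp2-1 1 left out together, and each library left out in turn, where the spread is pooled over groups. Libraries of a genotype were distinct, at 6.39 to 33.2 chi-square per gene for each pair.

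The 10 members, the 8 other flowering lists (82 genes, 68 tested) and the marker lists were chosen with earlier results of these data known. The text names all members, CLPP2, a fixed set of MADS and flowering genes, up to 4 genes per other list that were called in at least 1 contrast, ranked by adjusted p for both lines, and the 3 genes with the nearest profile for each member of at least 1 CPM. Genes named beside these, such as counts of 5 or fewer at an unadjusted p, were chosen after their values were seen. Gene models, promoters and CArG boxes were read from the RefSeq TAIR10.1 genome and annotation with Python 3.11.15 and pandas 2.3.3, and plots were drawn with matplotlib 3.10.9.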

Additional observations from a re-analysis of the deposited data

Results flagged for a closer look

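Each result here is a difference between clpp2-2 and clpp2-1 that passed the direct test of the difference between the lines (edgeR's quasi-likelihood test, Benjamini-Hochberg adjusted over all genes tested). Among the members, the log2 fold change of clpp2-2 over clpp2-1 was 1.72 for FLC (higher in all 3 clpp2-2 libraries, adjusted p = 0.00615), -1.24 for SEP3 (lower in all 3, adjusted p = 0.00293) and -1.14 for SOC1 (lower in all 3, adjusted p = 0.0116).

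Among the other flowering genes, TEM1 was at 0.85 and TEM2 at 0.81 on the log2 scale, with every clpp2-2 library above every clpp2-1 library. VEL1 was at -0.53 with every clpp2-2 library below. These 3 calls held under all 16 alternatives. MAF5 (1.18), AGL24 (-0.87), EMF1 (-0.52), SPA1 (-0.25) and SPL2 (-0.34) were nearer the threshold, with adjusted p between 0.0412 and 0.0473, and held in 4 to 9 of 16 alternatives. Both lines carry a mutation of the same gene, and CLPP2 RNA did not differ between them beyond the threshold (log2 fold change -0.27, adjusted p = 0.119). With 1 line for each allele, the effect of the allele and that of other differences between the lines cannot be told apart.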

How the results depend on the processing

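The calls of FLC, SEP3 and SOC1 in clpp2-2 against wt kept their direction and stayed under the threshold in all 16 alternatives. Of the 4 members called there, 3 were called without the filter, by DESeq2, with the replicate block, with only the groups compared, without wt 1 and clpp2-1 1, and in every fit without 1 library, AP3 being the one lost each time. For the mean of both lines, 1 member was called, against 3 by DESeq2 and 0 to 2 without 1 library.

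Counts over all genes moved more. In clpp2-2 against wt 2044 genes were called, 3373 by DESeq2, 1216 with only the groups compared, 727 without wt 1 and clpp2-1 1, and 502 to 4242 without 1 library. For clpp2-1 over wt 36 were called, 89 by DESeq2, 23 with the replicate block, 21 with only the groups compared, 23 without wt 1 and clpp2-1 1, and 23 to 63 without 1 library. For the mean of both lines the 216 calls became 1203 by DESeq2, 102 with the block, 94 without wt 1 and clpp2-1 1, and 67 to 2168 without 1 library. In clpp2-2 against clpp2-1 the 806 calls became 1760 by DESeq2, 513 with the block, 1494 with only the groups compared, 336 without wt 1 and clpp2-1 1, and 171 to 1463 without 1 library. The cause was not tested.

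Some values that were never called changed sign. For clpp2-1 over wt AG was at -0.031 with limma-voom, at -0.23 without wt 1 and clpp2-1 1, and at -0.15 to 0.24 without 1 library. PI was at -0.41 without wt 1 and clpp2-1 1, and at -0.27 to 0.83 without 1 library. FLC ran from -0.20 to 0.27, FUL from -0.47 to 0.035 and SOC1 from -0.16 to 0.093 without 1 library. For the mean of both lines AP1 was at -0.45 without wt 1 and clpp2-1 1 and at -0.36 to 0.88 without 1 library. PI was at 0.38 with limma-voom, 0.10 with the block and -0.91 to 0.19 without 1 library.

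Deviations of same-numbered libraries were correlated over 14263 genes, which are not independent replicates. The values were 0.117, 0.0241 and 0.0563 between clpp2-1 and wt, and -0.0481, 0.0439 and -0.0672 between clpp2-2 and wt. Between the lines they were -0.154, -0.00421 and -0.0599. The labels do not say whether libraries of the same number belong together, and these values cannot settle it. Counts under about 30 per library limit what can be said of AP1, AP3, PI, FUL, SEP1 and SEP2.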

Other observations

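Beyond the lists, the annotation names 99 AGAMOUS-like genes by symbol or synonym, of which 53 were in the table and 40 were tested. In clpp2-2 against wt 5 of the 40 were called, 2 higher and 3 lower, a share of 12.5% beside 10.1% of all genes tested. The higher calls include MAF4, which passed the filter on low counts only through clpp2-2, so its place in that count is a description. The called gene outside all lists was AGL79 (AT3G30260, chromosome 3, 11908870 to 11913166, plus strand), which was noticed after its values were seen. It had 0.522, 0.707 and 0.847 CPM in clpp2-2, against 2.91, 0.9 and 1 CPM in clpp2-1 and 2.92, 2.62 and 1.86 CPM in wt. The log2 fold change over wt was -1.83 (SE 0.472, edgeR adjusted p = 0.0452).

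VIN3, which starts the silencing of FLC in the cold, was also noticed after its values were seen. It had 1.15, 1.02 and 1.35 CPM in clpp2-2, against 0.408, 0.327 and 0.489 CPM in clpp2-1 and 0.635, 0.167 and 0.404 CPM in wt. All 3 clpp2-2 libraries were above the other 6, and the difference from wt did not pass the test with edgeR (log2 fold change 1.54, SE 0.442, adjusted p = 0.0604), while DESeq2 and limma-voom called it.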
